A study of Danio rerio with 7 samples.

Results

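The genes ccnb1, ccnb2 and tacc3 encode mitotic cyclins B1 and B2 and the spindle protein Tacc3. They were chosen by their log2 ratios on these same arrays, which earlier results showed higher in females than in males 8 and 9, so their sex differences are given here as descriptions, with no test. On the array the 3 genes have 6 non-control probes of 43603, 2 for each gene, found through the accession that the scanner files attach to each probe, and 11484 genes could be named in all.

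The arrays measured RNA of 7 adult zebrafish, 4 females (numbers 4, 7, 8 and 9) and 3 males (numbers 5, 8 and 9). All the fish were full siblings of a hybrid strain labelled AB x unknown, and RNA came from whole animals, 1 fish to an array. Each fish was labelled with the dye Cy5 and hybridised with a common hybrid reference in Cy3, with no dye swap, on a 2-colour Agilent oligonucleotide array. A log2 ratio below is fish over this shared reference after loess normalization within the array. A value of 0 thus lies on that array's own trend of ratio with intensity, and does not mean equal raw signal in both dyes. No treatment or mutation was named in the labels.

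Cyclin B binds the kinase Cdk1, and the complex, known as maturation or M-phase promoting factor, drives a cell into mitosis or meiotic division until the cyclin is destroyed. Tacc3 sits at centrosomes and spindle microtubules, where the kinase Aurora A and clathrin recruit it. Growing oocytes store cyclin B mRNA for use at maturation, and in Xenopus the TACC3 relative maskin is known as a protein of the complex that holds such stored mRNA silent.

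The array labelled male 5 went against its label. The differences at the brighter probe of each member and the count of called probes are therefore given with and without it. The gene lists and the other member probes are compared without it, with its own values beside some of them. Its log2 ratios over 10210 probes, those whose Cy5 signal stood well above background on every array, correlated with those of female 8 at r = 0.872 and with those of female 4 at r = 0.804. Both females are of its own scan session, and with females 7 and 9 of another session r was 0.467 and 0.496. With the other males it was 0.417 for male 8 and 0.335 for male 9, while males 8 and 9 correlated with each other at 0.899 (Pearson over probes, which are not independent replicates). Log ratios did not follow sex in general. Female 7 correlated at 0.745 with male 9, of its own session, and at 0.469 with female 8, and female 9 at 0.737 and 0.505. Female 4 went the other way, at 0.676 with female 7 and 0.615 with male 9. In the Cy5 signal alone, male 5 correlated at 0.901 to 0.967 with the 4 females, against 0.512 and 0.563 with males 8 and 9. Male 5 shared its scan session with females 4 and 8, the session with the lowest share of spots well above background in Cy5 (29.7% to 33.7%, against 45.7% to 65.2% on the other 4 arrays). The part of the session in its likeness to these females was not tested. The file headers also give 3 pairs of arrays the same slide and position in different sessions, namely female 4 with female 7, female 9 with male 5, and female 8 with male 9. Whether arrays were used more than once was not tested. Each fish is 1 animal, and their number limits the precision.

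Cyclin B1, an activating subunit of Cdk1, had high transcript ratios in the females and male 5 and low ones in males 8 and 9. The brighter ccnb1 probe, A_15_P106239, had log2 ratios of -0.57, -1.11, -0.21 and -0.24 in females 4, 7, 8 and 9, against -5.06 and -4.33 in males 8 and 9. Male 5 was at 0.04. After loess the females and male 5 lay near the shared reference, and the other males lay far below it with no overlap. With median centring in place of loess, females 4, 7, 8 and 9 were at -1.91, -0.30, -1.85 and -0.81. Male 5 was then at -1.41, and males 8 and 9 were at -6.59 and -6.60. The 4 females averaged -0.53 ± 0.42 (SD, n = 4). The difference from males 8 and 9 was 4.17 log2 units (SE 0.33 from the limma fit), or 17.9-fold, and from all 3 males it was 2.59 (SE 1.15).

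The second ccnb1 probe, A_15_P101325, was dimmer and gave a smaller difference in the same direction. It had -1.77, -0.30, -0.28 and 0.21 in females 4, 7, 8 and 9, against -2.79 and -1.97 in males 8 and 9, and -0.92 in male 5. Female 4 was only slightly above male 9 here, and male 9 was not well above background. The females averaged -0.54 ± 0.86 (SD, n = 4), and the difference from males 8 and 9 was 1.85 (SE 0.56), or 3.59-fold. The normalization moved this probe by more than 1.5 times, to 5.24 with the scanner software's processed signals.

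Cyclin B2, which also activates Cdk1, showed the same separation at both of its probes. Probe A_15_P109617 had -1.02, -1.11, -0.78 and -0.35 in females 4, 7, 8 and 9, against -5.72 and -4.57 in males 8 and 9. Male 5 was at -0.72, inside the female range. The female mean was -0.81 ± 0.34 (SD, n = 4), and the difference from males 8 and 9 was 4.33 (SE 0.36), or 20.2-fold. Against all 3 males it was 2.86 (SE 1.09).

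At the other ccnb2 probe, A_15_P163531, the log2 ratios were -0.32, -0.35, 0.08 and -0.02 in females 4, 7, 8 and 9, against -4.68 and -3.35 in males 8 and 9, and -0.04 in male 5. Again male 5 stood among the females and the other males stood apart. The females averaged -0.15 ± 0.22 (SD, n = 4), with a difference of 3.86 (SE 0.37), or 14.5-fold, from males 8 and 9.

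After loess the spindle gene tacc3 was even among the females and low in males 8 and 9. Probe A_15_P115554 had -0.01, -0.01, -0.03 and -0.14 in females 4, 7, 8 and 9, against -3.49 and -3.14 in males 8 and 9. Male 5 was at 0.29, above every female. The females averaged -0.05 ± 0.07 (SD, n = 4). The difference from males 8 and 9 was 3.27 (SE 0.16), or 9.63-fold, and from all 3 males 2.07 (SE 0.86). With median centring in place of loess, females 4, 7, 8 and 9 were less even, at -1.35, 0.76, -1.63 and -0.71.

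The second tacc3 probe, A_15_P106653, was close to background and measured the difference poorly. It gave -0.12, -0.10, 0.10 and 0.02 in females 4, 7, 8 and 9, against -0.39 and -0.67 in males 8 and 9, and 0.14 in male 5. Neither male 8 nor male 9 was well above background here, and 3 of 4 females were. The measured difference was 0.50 (SE 0.16), against males at background, and it was 3.07 with the processed signals.

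At all 6 probes every female was above both male 8 and male 9, an order that 23.6% of all probes with values in these fish also had. At none of the 6 were all females above all 3 males, which held for 1.92% of all probes. Male 5 was above the highest female at 3 probes and within the female range at the other 3. Differences of 2 log2 units or more in favour of females were found at 2.4% of probes, and the members were chosen for such differences, so nothing is read from their place among them. In whole animals, fewer cells of a type and less RNA per cell cannot be told apart.

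**Figure D1:**
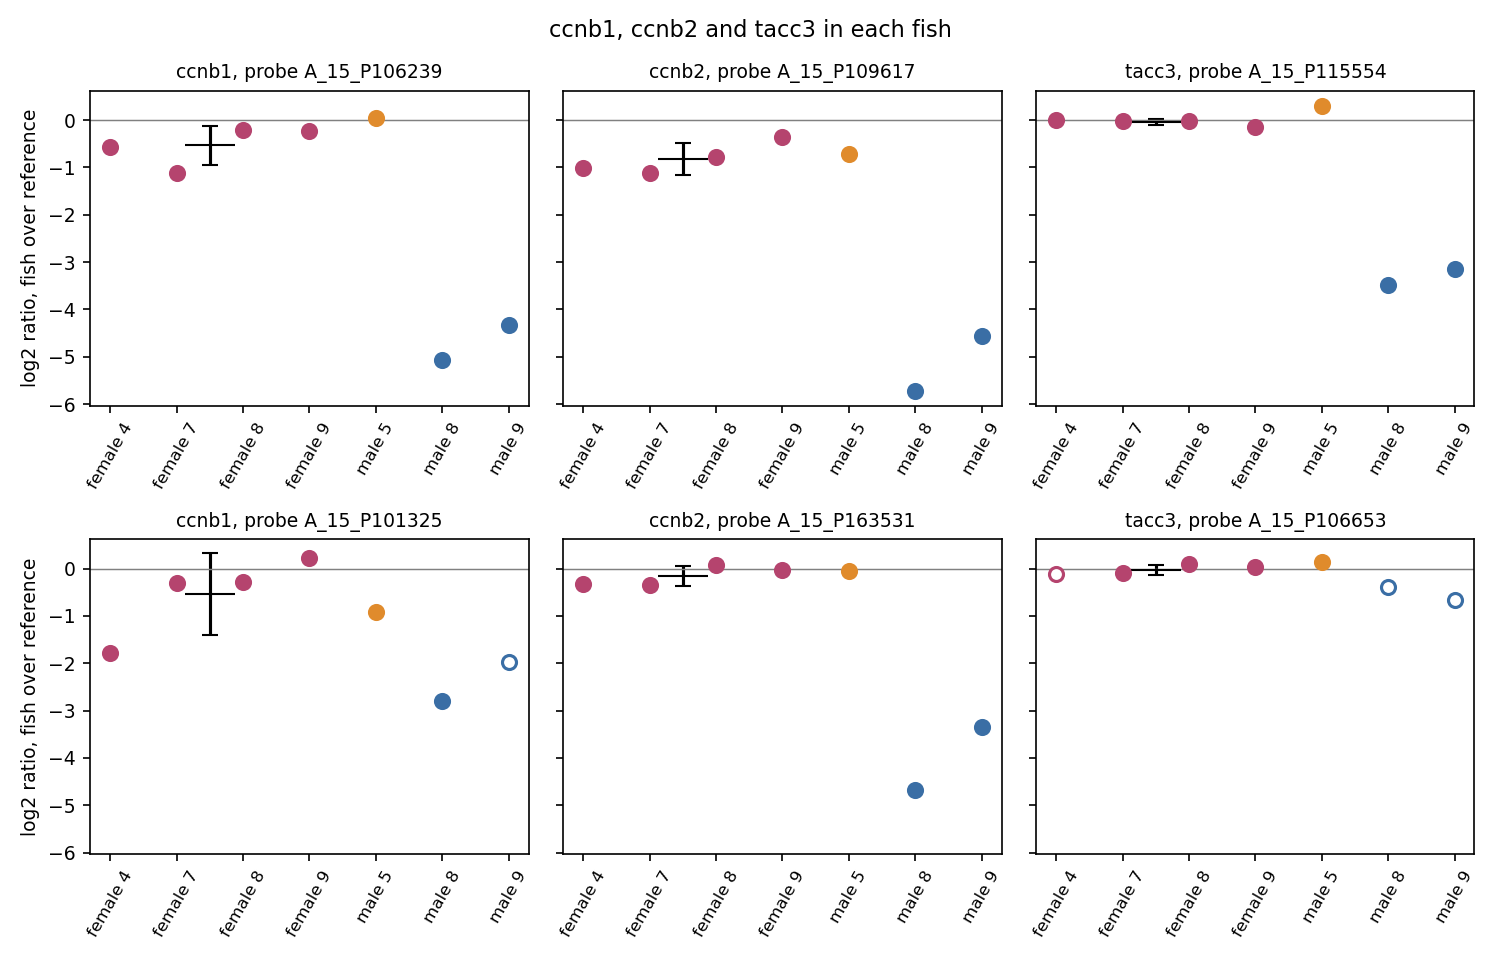
Log2 ratio of each fish over the common reference (vertical axis) for the 6 probes of ccnb1, ccnb2 and tacc3, with females left of males and 1 point per fish, open where Cy5 was not well above background, and the female mean ± SD as a bar. Males 8 and 9 lie below every female at each probe, and male 5 lies with or above the females.

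The separate dye signals show where these ratios came from. At the brighter ccnb1 probe the Cy5 signal minus local background was 2868, 18042, 2933 and 12951 in females 4, 7, 8 and 9, against 71 and 135 in males 8 and 9, and it was 3435 in male 5. For ccnb2 at A_15_P109617 it was 2503.5, 17654, 2119 and 12564 in the same females, against 39 and 110 in males 8 and 9, and 2295 in male 5. For tacc3 at A_15_P115554 it was 3472, 19756, 2542 and 7162 in the females, against 174.5 and 176 in those males, and 3099.5 in male 5. The low ratios of males 8 and 9 thus came with low Cy5 signal of the fish. The Cy3 signal of the reference, before background subtraction, lay between 9787 and 23175 for ccnb1, 11046 and 24033 for ccnb2 and 7313 and 12613 for tacc3. Females 7 and 9, of another session than females 4 and 8, were brighter in Cy5 at all 3 probes. None of the 6 probes was saturated on any array.

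Within scan sessions the split followed male 5. In the session of females 7 and 9 with male 9, the difference was 3.66 for ccnb1 at A_15_P106239, 3.84 for ccnb2 at A_15_P109617 and 3.06 for tacc3 at A_15_P115554. In the session of females 4 and 8 with male 5 the same probes gave -0.43, -0.17 and -0.30. Male 8 was scanned alone, so its session and the fish cannot be told apart. Each session holds at most 1 male, so these within-session values have no spread among males. With male 5 left out and scan session as a block, only females 7 and 9 and male 9 set the sex difference. Calls kept or lost in that fit therefore rest on 1 male.

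Among the females alone, the spread of ccnb1 and ccnb2 was ordinary and that of tacc3 was small. The spread of the females enters the SE of the contrast from which the members were chosen. These places are therefore a description and not independent of that choice. Their SDs were compared with 12719 probes well above background in Cy5 in all 4 females and saturated in none, whose median SD was 0.31. The ccnb1 SD stood at percentile 67.8 (94.4 for its dimmer probe), the ccnb2 SD at 55.4 (30.2 for the other probe) and the tacc3 SD at 1.81. The low place of tacc3 depended on the normalization: its SD of 0.07 was 1.07 with median centring in place of loess and 0.25 with the processed signals.

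**Figure D2:**
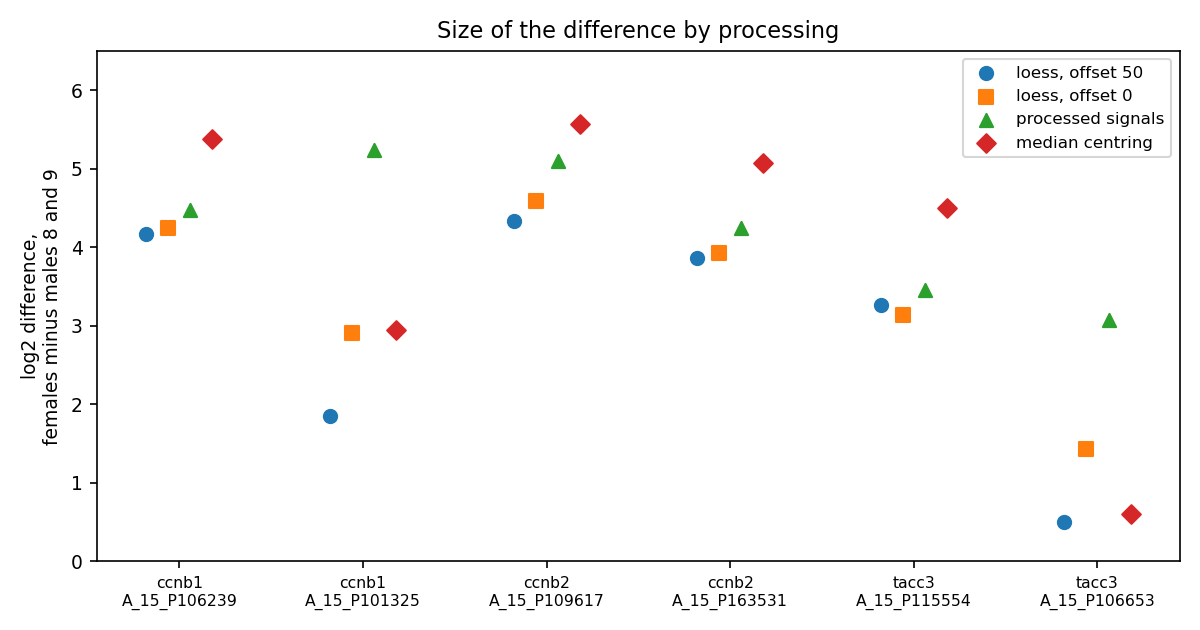
Difference of the 6 probes, females minus males 8 and 9 (log2 units), under each normalization. The direction is the same under every setting shown, and the dimmer probes of ccnb1 and tacc3 move most.

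The genes around cyclin B and Tacc3 were then set beside the members. Of 22705 probes tested in limma with Benjamini-Hochberg adjustment (adjusted p under 0.05), 5757 (25.4%) differed between the 4 females and males 8 and 9, 2999 (13.2%) higher and 2758 (12.1%) lower in females. Median centring gave 676 higher and 30 lower. With 1 probe for each gene, 31% of 8845 genes passed, 19.3% higher and 11.7% lower in females, with a median difference of 0.06. Against all 3 males, limma called 0 of 22705 probes, 1525 had an unadjusted p under 0.05, and the smallest adjusted p was 0.539. The remaining male was left out of the main comparison because its egg coat genes went against its label in earlier results. The lists were also chosen with earlier results known. The counts and adjusted p-values against males 8 and 9, here and in each list below, are therefore a description and no independent test. The 6 lists of cell cycle and stored mRNA genes held 99 tested genes. Of these, 58 (58.6%) were higher and 3 (3.03%) lower in females than in males 8 and 9. Without male 8, 35 genes passed in place of 61.

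Cyclins other than B1 and B2 did not move as a block. Of 18 tested, 5 were higher, 2 lower and 11 did not pass, with a median difference of 0.08. For ccnh, counted among the 5, neither male 8 nor male 9 was well above background. Its probe was tested through the fish where it is high. The cyclin A2 gene ccna2, a partner of Cdk1 and Cdk2, was higher in females by 2.83 (SE 0.71, adjusted p = 0.0311), and ccne1, the S-phase cyclin E1, by 2.49 (SE 0.58, adjusted p = 0.0248). The other tested ccna2 probe gave 1.915. The germline cyclin ccna1 was higher by 1.77 (adjusted p = 0.017), a call lost in 3 of the 14 alternatives that tested it. The meiotic cyclin ccnb3 differed by 0.63 (adjusted p = 0.0496), a call lost in 11 of 15 alternatives. In the other direction, ccng2, a cyclin tied to growth arrest, was lower in females, with a difference of -2.04 (SE 0.44, adjusted p = 0.0189). That call was lost in 3 of 15 alternatives. Without male 8, or with median centring, no cyclin of this list was called higher. Over 15 alternatives the ccna2 call was lost in 6, among them leaving out female 4, 7 or 9 and no filter on dim probes, and the ccne1 call in 4, among them leaving out female 7 or 9.

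Of 16 tested genes for Cdk1 and its control, 7 were higher in females, 1 lower and 8 did not pass, with a median of 0.82. The oocyte kinase wee2, which restrains Cdk1, had -0.64, -0.56, -0.60 and -0.24 in females 4, 7, 8 and 9, against -4.31 and -3.43 in males 8 and 9 and -0.27 in male 5. It was higher in females by 3.36 (SE 0.27, adjusted p = 0.00151), and by 1.59 at its other tested probe. The anaphase-promoting complex inhibitor fbxo5 was higher by 3.18 (SE 0.18, adjusted p = 0.00104), and cdc25b, the phosphatase that activates Cdk1, by 2.88 (SE 0.41, adjusted p = 0.00507). Polo-like kinase gene plk1 had -0.31, -0.32, 0.64 and -0.11 in females 4, 7, 8 and 9, against -2.40 and -2.40 in males 8 and 9 and 0.65 in male 5, a difference of 2.38 (adjusted p = 0.00348). The kinase gene cdk1 itself was higher by 1.54 (SE 0.32, adjusted p = 0.0167). For the Cdk1 subunit gene cks1b neither male was well above background, so its probe was tested through the fish where it is high. The measured difference, counted among the 7, was 0.93. The calls of cdk1, cks1b and the 1 lower gene were among those lost with median centring and without male 8. The related cks2 had a difference of -0.20 (adjusted p = 0.461).

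Genes that destroy cyclin B or hold the spindle checkpoint were mostly higher in females. Of 16 tested, 10 were higher in females, 0 lower and 6 did not pass, with a median of 1.24. For cdc16, counted among the 10, neither male 8 nor male 9 was well above background. Its probe was tested through the fish where it is high. The 10 became 2 with median centring and 5 without male 8. The activator of the anaphase-promoting complex cdc20 was higher by 2.35 (SE 0.65, adjusted p = 0.0415). This call was lost in 8 of 15 alternatives, among them leaving out female 4, 7 or 9 or either male. The other 2 tested cdc20 probes passed, with differences of 1.49 and 1.83. The checkpoint gene mad2l1 had 0.48, -0.08, 0.66 and -0.02 in females 4, 7, 8 and 9, against -1.87 and -1.80 in males 8 and 9 and 0.60 in male 5. Its difference was 2.1 (SE 0.25, adjusted p = 0.00318). The complex subunit anapc5 was higher by 1.61 (adjusted p = 0.0352), a call lost in 6 of 15 alternatives, and the ubiquitin-conjugating enzyme gene ube2s by 1.60 (adjusted p = 0.00238). The other activator, fzr1a, had a difference of 0.37 (adjusted p = 0.508).

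Of 12 tested spindle partners of Tacc3, 8 were higher in females, 0 lower and 4 did not pass, with a median of 1.04. With median centring none was called, and with a fish left out 5 to 7 were. The gene aurka, for the kinase that recruits Tacc3, was higher by 2.25 (SE 0.29, adjusted p = 0.00362). The spindle assembly gene hmmr was higher by 2.09 (SE 0.18, adjusted p = 0.00161) and the kinesin gene kif11 by 2.08 (SE 0.27, adjusted p = 0.00372). The other tested hmmr probe gave 0.96. For gtse1, a microtubule protein gene, neither male was well above background, so its probe was tested through the fish where it is high. The measured difference was 1.76, against males at background. The same held for kif2c, also counted among the 8, with a measured difference of 0.60. The clathrin heavy chain gene cltca had a difference of -0.66 (adjusted p = 0.295), which passed with scan session as a block, where it rests on 1 male.

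Among genes that mask or polyadenylate stored mRNA, with 1 probe for each gene, 14 of 20 tested were higher in females. At these probes 0 were lower and 6 did not pass, with a median of 1.16. The 14 became 5 with median centring and 7 without male 8. The egg poly(A)-binding protein gene pabpc1l had -0.33, -0.19, -0.02 and -0.14 in females 4, 7, 8 and 9, against -4.16 and -3.01 in males 8 and 9 and -0.05 in male 5. It differed by 3.42 (SE 0.32, adjusted p = 0.00182), and by 1.21 at its other tested probe. The RNA granule gene lsm14b was higher by 3.33 (SE 0.34, adjusted p = 0.00226), the mRNA-binding gene igf2bp3 by 3.12 (SE 0.31, adjusted p = 0.0022), and zar1, an oocyte RNA-binding gene, by 2.76 (SE 0.23, adjusted p = 0.00155). The other igf2bp3 probe did not pass. The polyadenylation element-binding gene cpeb1b was higher by 0.92 (adjusted p = 0.0143), a call lost in 4 of 15 alternatives. The cap-binding gene eif4e1b was higher by 2.01 (adjusted p = 0.0223), a call lost in 3 of 15. Scan session as a block was among those for both. The genes eif4enif1 (1.78, adjusted p = 0.244) and cpeb1a (-0.24, adjusted p = 0.39) did not pass. With scan session as a block eif4enif1 passed, a result that rests on 1 male. The other tested eif4e1b probe did not pass.

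Genes of dividing cells in general were higher in females for 14 of 17 tested, lower for 0, and 3 did not pass, with a median of 2.06. The 14 became 8 with median centring and 10 without male 8. The survivin gene birc5b, of the chromosomal passenger complex, was higher by 3.52 (SE 0.31, adjusted p = 0.00162), and cdca8, of the same complex, by 2.88 (SE 0.25, adjusted p = 0.00155). The other 2 tested cdca8 probes did not pass. The nucleotide reductase gene rrm1 was higher by 3.0 (SE 0.18, adjusted p = 0.00104) and the condensin gene smc4 by 2.81 (SE 0.36, adjusted p = 0.00365), while the other tested probe of each did not pass. The replication clamp gene pcna was higher by 1.17 (adjusted p = 0.0263), a call lost in 6 of the 14 alternatives that tested it.

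Egg coat and oocyte markers were higher in females, as the members were, and testis and sperm markers were mostly lower. Of the egg coat and oocyte list, 19 of 19 tested genes passed with higher values in females, and the median difference was 4.65. Their mean log2 ratio was between -0.52 and 0.39 in the 4 females, against -4.50 and -3.52 in males 8 and 9, and it was 0.39 in male 5. Male 5 was left out of this contrast because its egg coat genes went against its label in earlier results. The count and p-values of this list are therefore a description and no independent test. The oocyte gene figla, counted among them, was well above background in neither male 8 nor male 9. The egg coat gene zp3f.1 averaged -0.10 in females, against -6.54 and -4.81 in males 8 and 9, a difference of 5.57 (SE 0.51, adjusted p = 0.00176). The egg coat gene zp3e differed by 5.22 (SE 0.46, adjusted p = 0.00164), and by 2.22 at its other tested probe. With male 8 left out as an outlier spot zpcx differed by 5.31, and with male 9 left out for the same reason zp3 differed by 5.89, each against 1 male. The zp3 spots of females 7 and 9 were saturated, as were zpcx in female 7 and zp3f.1 on 1 array, so these differences are not exact, and the other tested zpcx probe did not pass.

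Testis somatic genes were lower in females for 6 of 8 tested (median -1.21), 0 were higher and 2 did not pass. Their mean log2 ratio was between -0.21 and 0.42 in females, against 1.12 and 1.54 in males 8 and 9, and it was -0.14 in male 5. The steroid enzyme gene hsd17b3 had a difference of -2.33 (SE 0.16, adjusted p = 0.00112). Those of inha, an inhibin subunit, and ar, the androgen receptor, were -1.52 and -1.25. That of cyp26b1, a retinoic acid-degrading enzyme, was -2.37 (adjusted p = 0.0096), a call lost with scan session as a block. For ar and cyp26b1 no other tested probe passed. Of the 4 females, 2 were well above background for inha. The 6 testis genes became 2 with median centring, and 2 among probes well above background in every fish. Sperm and spermatid genes were lower in females for 5 of 9 tested (median -1.70), 0 were higher and 4 did not pass. Their mean was between 0.04 and 0.23 in females, against 1.19 and 1.25 in males 8 and 9, and 0.02 in male 5. The cilium genes cimap1b, tekt1 and tekt2 had differences of -2.43, -2.28 and -1.98, and ropn1l, of the sperm tail, of -1.90. The other tested tekt2 probe gave -0.71. Of the 4 females, 2 were well above background for tekt1 and 1 for ropn1l, so these values set males against females largely at background. No sperm gene passed among probes well above background in every fish, and 2 passed with median centring. The part of these cells in the cyclin B and tacc3 differences was not tested.

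Male 5 followed the females in these lists too. Its log2 ratio was nearer to the female mean than to the mean of males 8 and 9 for 61 of the 61 called cell cycle and stored mRNA genes, and within the female range for 45 of them. It was also nearer for all 19 called egg coat and oocyte genes, all 6 testis genes and all 5 sperm genes. Egg coat genes were the ground for leaving male 5 out, so its place among them was known beforehand and adds nothing. The share over all called genes was not taken, so these counts describe the male 5 array and not these lists in particular.

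**Figure D3:**
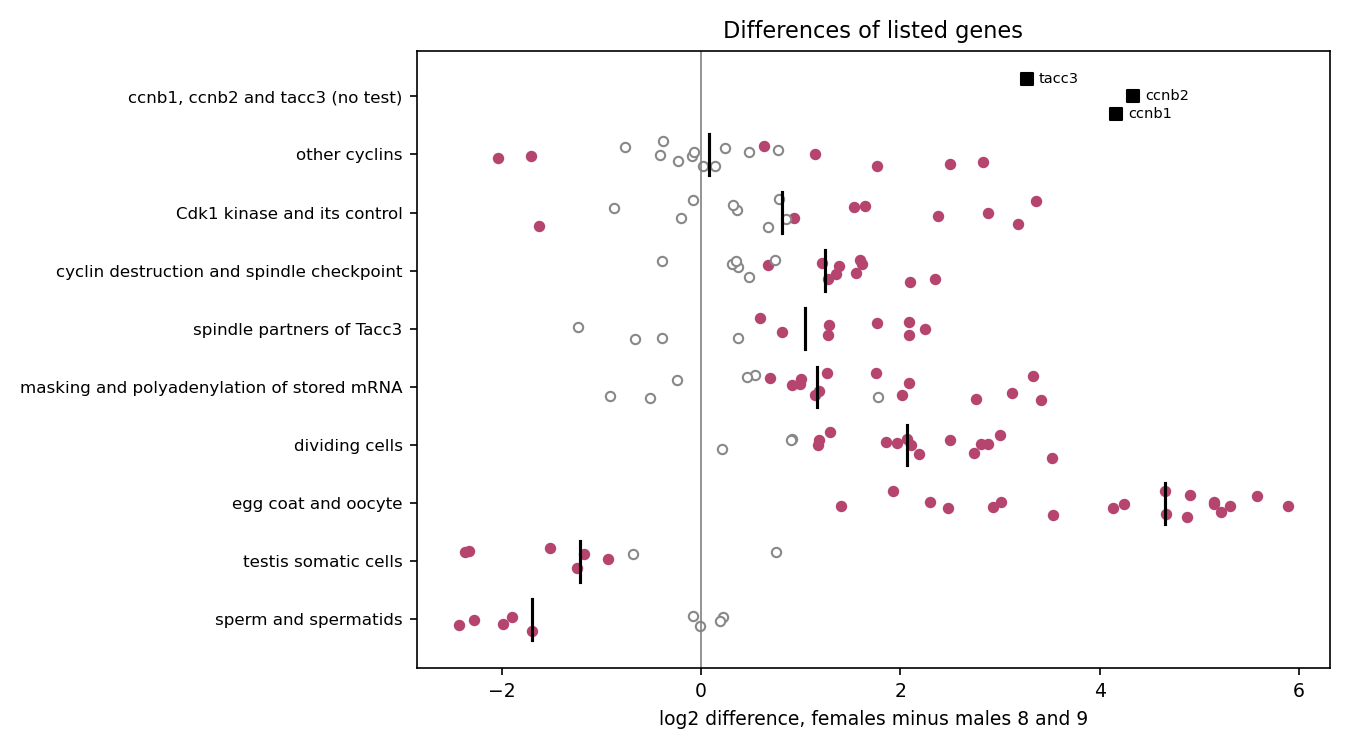
Log2 difference of each tested gene, females minus males 8 and 9, by list, with filled points for genes that passed in limma, open points for those that did not and a bar at each median. Cyclins other than B1 and B2 centre near 0, dividing-cell genes near 2.06 and egg coat genes near 4.65.

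Genes whose log2 ratios most resembled the mean of the 3 brighter member probes were ranked by Pearson correlation over 7 fish among 5312 genes. The 3 with the highest r were mid1ip1l, drg1 and tmem144b at 0.999 each, followed by ano1a and dhrs13b.1 at 0.998 and rpain, zgc:153675 and cth1 at 0.997. Since the fish fall into a high cluster of 5 and a low cluster of 2, this r mostly follows that split, and 641 genes exceeded 0.95. A high r does not mean differences of equal size. The gene ano1a lay at -1.22 and -1.08 in males 8 and 9, and mid1ip1l at -4.58 and -3.90.

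Among themselves the members were alike over all 7 fish and less so within the high cluster. Over 7 fish r was 0.991 for ccnb1 with ccnb2, 0.987 for ccnb1 with tacc3 and 0.984 for ccnb2 with tacc3. Over the 5 fish without males 8 and 9 it was 0.699, 0.389 and -0.201 in the same order. These 5 fish came from 2 of the 3 scan sessions, and their number leaves each r imprecise. The members were chosen as higher in females than in males 8 and 9, so a high r over 7 fish largely follows from that choice.

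**Figure D4:**
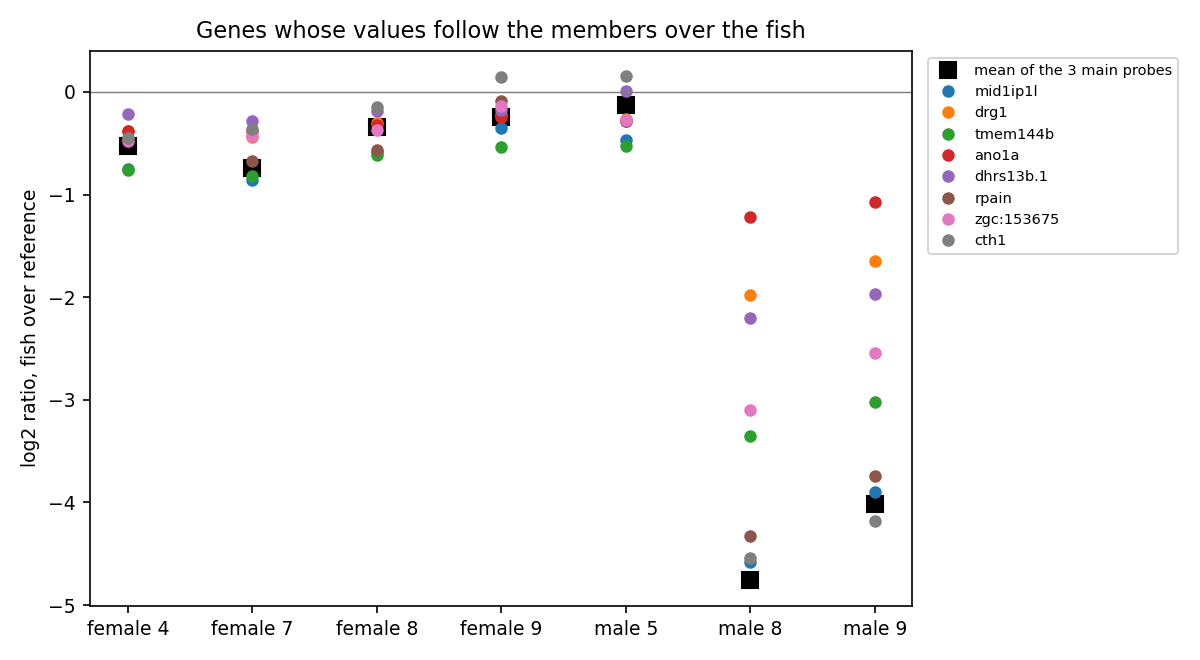
Log2 ratio over the common reference by fish for the mean of the 3 brighter member probes (squares) and for the 8 genes with the highest correlation with it (circles), with females left of males. All of them are low in males 8 and 9, to differing depths, and male 5 stands with the females.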

How the data were processed

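RNA of 7 fish was compared with a common reference on 2-colour arrays of 45220 spots, 1 array a fish. Per the file headers, Agilent Feature Extraction 10.5.1.1 measured the deposited spot intensity of each dye. The deposited value table holds log10 ratios of Cy5 over Cy3 that equal the scanner files' own, per the file headers; their median was 0 in every column, and turned into log2 they are an alternative. The labelling protocol in the labels describes denatured DNA although the molecule is given as RNA.

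Median intensities were background-corrected with normexp (offset 50) and normalized by loess within each array, with control spots at weight 0 and 98 outlier spots left out. Spots of a probe were averaged. Probes well above background in Cy5 on at least 3 of 7 arrays (22705) were tested in limma 3.58.1 (R 4.3.3), female minus male, with Benjamini-Hochberg adjustment over all of them. The main comparison leaves out male 5, whose egg coat genes went against its label in earlier results. A gene is represented by its tested probe with the highest mean intensity. Names came from RefSeq accessions, which 16568 probes (38.0%) matched. The lists hold 155 genes in the 6 cell cycle and stored mRNA lists, of which 99 were tested; genes without a named probe were not analysed here.

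The members and lists were chosen with earlier results of these data known. In each list the text names the 4 called genes with the largest absolute difference and, by role, direct partners of the members, and for likeness the 8 genes with the highest correlation. Genes named only for dim signal in males 8 and 9, and arpp19a and ybx1, are not among the named genes counted under the alternatives. Numbers 8 and 9 occur in both sexes, but the labels do not say that a number pairs fish, and deviations of same-numbered fish correlated at -0.117 and 0.467. P-values measure the spread between the fish in each fit, and the main comparison leaves out that of male 5. Males 8 and 9 were scanned in different sessions, so fish and session cannot be told apart in their spread. Alternatives were the software's processed signals, the deposited ratios, median centring, Aquantile, other filters on dim probes, scan session and fish number as blocks, each fish left out and, added after seeing the data, a normexp offset of 0. No columns of other samples were present.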

Additional observations from a re-analysis of the deposited data

Results flagged for a closer look

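For tacc3 at A_15_P115554, female 9 stood apart from the other females, at a log2 ratio of -0.14 where the other 3 lay between -0.03 and -0.01. The gap was 0.865 of the whole range of the 4 females, above Dixon's critical value for 4 samples, and chance passes that value in about 1 in 20 groups. It was 1 of 6 probes looked at, and it did not hold under other normalizations. The processed ratios of females 4, 7, 8 and 9 were -0.62, -0.06, -0.52 and -0.33, and with an offset of 0 they were -0.24, -0.06, -0.14 and -0.36. With median centring female 7 was highest, at 0.76, and female 9 lay within the range of the others.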

How the results depend on the processing

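At the brighter probes the members kept their direction, females above males 8 and 9, under every setting run, and their sizes moved. Median centring gave 5.38 for ccnb1, 5.56 for ccnb2 and 4.49 for tacc3. The processed signals and the deposited ratios each gave 5.09 for ccnb2 and 3.45 for tacc3. Scan session as a block gave 3.66 for ccnb1 and 3.06 for tacc3. These equal females 7 and 9 minus male 9, since the other fish carry no weight in that difference by construction. Leaving out a fish in turn gave 3.80 to 4.53 for ccnb1, 3.75 to 4.91 for ccnb2 and 3.09 to 3.44 for tacc3. Against 3 males it gave 1.61 to 4.17, 1.83 to 4.33 and 1.38 to 3.27 for the same genes, highest without male 5. The SD between females was 0.80 for ccnb1, 1.05 for ccnb2 and 1.07 for tacc3 with median centring, and for tacc3 0.25 with processed signals and 0.13 with an offset of 0. Without a female in turn it was 0.20 to 0.51, 0.17 to 0.41 and 0.0095 to 0.078.

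With fish number as a replicate block, the difference from 3 males was 4.47 for ccnb1 and 4.58 for ccnb2, and 4084 probes were called. Fish without a same-numbered partner, male 5 among them, carry no weight in that fit by construction, and the labels do not pair the fish.

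Against males 8 and 9, 9447 probes were called with processed signals, 9506 with deposited ratios and 706 with median centring, and 3432 to 4804 with a fish left out. Against 3 males leaving out a fish gave 0 to 5757, with 5757 reached without male 5. Median centring moved the median of all probes to 0.24, against -0.05 with loess and -0.33 with processed signals. It called 20 genes over the 6 lists, against 61 with loess. It called 0 cyclins and 0 spindle partners higher, 2 destruction genes, 5 masking genes and 8 dividing-cell genes higher, 2 testis and 2 sperm genes lower, and 0 cyclins and 0 Cdk1 genes lower. The processed signals and the deposited ratios called 11 Cdk1 genes higher and 1 masking gene lower. With no filter on dim probes 2 cyclins were higher. Under the stricter filter, well above background on every array, 2 cyclins and 5 spindle partners were higher, and 2 testis and 0 sperm genes lower. The session block called 0 Cdk1 genes and 2 spindle partners lower, and the replicate block 1 cyclin and 1 masking gene lower. Leaving out a fish gave 35 to 56 list genes, and by list 0 to 5 cyclins higher and 1 to 3 lower, 5 to 7 Cdk1 genes higher and 0 to 1 lower, 5 to 9 destruction genes, 5 to 7 spindle partners higher and 0 to 2 lower, 7 to 13 masking genes, 10 to 15 dividing-cell genes, 16 to 19 egg genes and 3 to 5 testis genes. Without male 8 gave most of the lowest counts. The sign turned for 3 genes that did not pass: cks2 (0.10 with processed signals, 0.10 with deposited ratios, 0.88 with median centring), cltca (0.56 with median centring, and -1.46 to 0.13 with a fish left out) and fzr1a (-0.12 to 0.87 with a fish left out). The cause was not tested.

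Of 30 named genes that passed, 13 stayed past the threshold with median centring, 24 with the session block, 27 with the replicate block and 18 without male 8. Signal over background limits the dimmer probes of ccnb1 and tacc3, and 2 males limit every comparison.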
